A study of Homo sapiens with 6 samples.

Results

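Genes of WNT signalling were described in PC-3 cells, an established human prostate cancer cell line, with and without depletion of CdGAP, the GTPase-activating protein encoded by ARHGAP31. The members were 49 genes chosen by symbol out of the 64253 genes in the count tables: 13 WNT ligands, 2 genes of ligand processing, 9 frizzled receptors, 5 co-receptors, 5 secreted antagonists, 5 genes of the R-spondin axis, 4 genes of the β-catenin destruction complex including β-catenin itself, 2 Dishevelled inhibitors and 4 TCF/LEF transcription factors. RNA was sequenced from 3 samples with a short hairpin RNA against CdGAP (shCdGAP) and 3 samples with a control hairpin (shCon), and the comparison asked which of these genes differed in RNA level when CdGAP was depleted. Both groups were PC-3 cells infected to carry a hairpin. Per the study's methods, the hairpin against CdGAP was brought in by lentivirus, and the depleted cells were selected with puromycin and picked as single-cell clones, while cloning is not stated for the control cells and which clone was sequenced is not given in the sources used here. A difference made by the hairpin can therefore not be told apart from a difference between clones or cell populations.

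WNT proteins are secreted lipid-modified ligands that bind a frizzled receptor together with a co-receptor on the receiving cell. In the canonical branch, receptor binding stops a cytoplasmic complex of axin, APC and kinases from marking β-catenin for destruction, and the accumulated β-catenin joins TCF/LEF factors on DNA. The pathway writes its own brakes and amplifiers, since AXIN2, RNF43, ZNRF3, LGR5, DKK1, NKD1, NOTUM, TCF7 and LEF1 are all known target genes that act back on it, and in prostate cancer WNT signals are known for their part in growth without androgen and in spread to bone.

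The libraries held between 33182796 and 43154039 counted reads. ARHGAP31 had 26.8 ± 0.351 CPM in shCdGAP cells and 59.2 ± 1.22 CPM in shCon cells (SD, n = 3 each), where CPM is the read count per 1e6 reads of the library after TMM scaling. Markers of the labelled cell type were present, with summed levels of KRT8, KRT18, EPCAM and KRT19 between 685 and 1180 CPM in the 6 libraries, while EPCAM and KRT19 were higher in shCdGAP cells. KLK3, which encodes prostate-specific antigen, had no read in any library. The leukocyte markers PTPRC and CD3E summed to at most 0.0247 CPM. The endothelial markers PECAM1, CDH5 and VWF summed to 2.44 to 6.06 CPM in shCdGAP and 5.69 to 5.84 CPM in shCon libraries, nearly all of it PECAM1, and VWF had at most 1 read in a library. The fibroblast markers moved with the comparison: COL1A1, PDGFRB, LUM and DCN summed to 58.5 to 62.7 CPM in shCdGAP against 17.7 to 19.3 CPM in shCon libraries, 3 of the 4 were higher, and DCN had at most 5 reads in a library. The part of these markers in the results below was not tested. One library stood apart. The counts of shCdGAP replicate 2 differed from those of replicates 1 and 3 by chi-square values of 26.6 and 32.7 per degree of freedom, against 2.58 to 6.89 for the other pairs within a group. For several of the members it moves most, values are also given without it.

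Of the 49 members, 33 had enough reads to be tested, and 24 of these changed at an adjusted p under 0.01, 13 higher and 11 lower in shCdGAP cells. Over all 16439 genes tested by the same edgeR quasi-likelihood fit, 46.2% changed, 24.1% higher and 22% lower. With the further condition of an absolute log2 fold change above 1, 6 members were called, against 12.8% of all tested genes. The 5 higher ones were WNT7B, FZD7, RNF43, AXIN2 and TCF7, where 8.56% of all tested genes were called higher. The single lower one was LGR5, where 4.19% were called lower. In 28 of the 33 tested members the 3 shCdGAP libraries lay wholly on one side of the 3 shCon libraries, against 67.1% of all tested genes. The median log2 fold change was 0.19 over the tested members and 0.01 over all tested genes, and the median absolute change was 0.52 and 0.31. These are bulk RNA levels, in which fewer cells expressing a gene cannot be told apart from less RNA per cell.

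**Figure D1:**
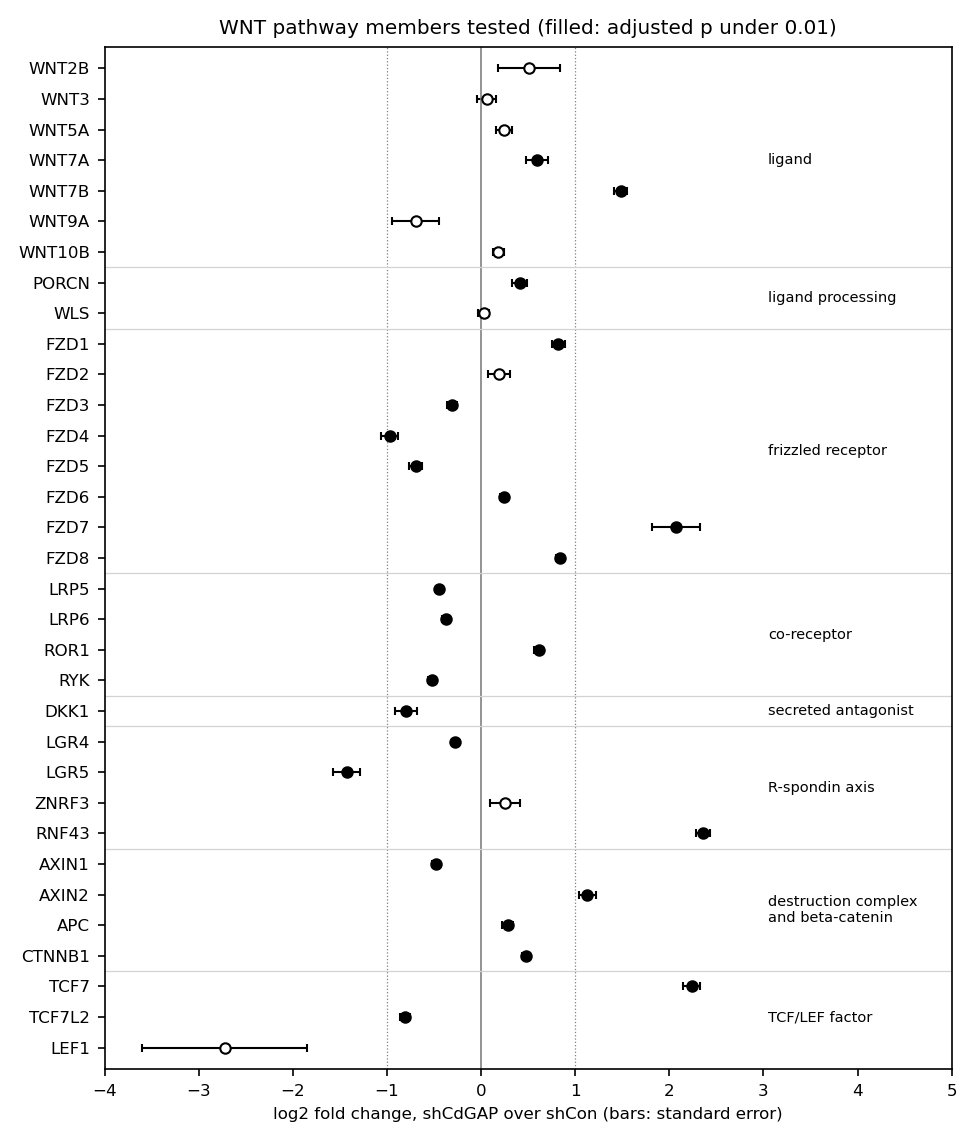
Log2 fold change of the 33 tested members in shCdGAP against shCon cells, grouped by role, with bars of 1 standard error, filled points for an adjusted p under 0.01 and dotted lines at -1 and 1. The filled points reach from -1.43 for LGR5 to 2.36 for RNF43, while LEF1 at -2.72 has the widest bar and an open point.

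The remaining 16 members were at or near the limit of detection. WNT3A, WNT6 and FZD10 had no read in any library, and a count of 0 allows a level of up to 0.0689 to 0.0908 CPM (3 reads, counting error only). The other 13 had at most 17 reads in any library, with the highest group mean at 0.282 CPM. Among ligands these were WNT4, WNT5B, WNT10A and WNT11, among receptors ROR2, among antagonists DKK3, SFRP1, FRZB and NOTUM, and further RSPO3, NKD1, NKD2 and TCF7L1. WNT10A had 3, 2 and 4 reads in the depleted libraries and none in shCon libraries, and NKD1, an inhibitor of Dishevelled, had 4, 1 and 2 reads against none. NKD2, the other Dishevelled inhibitor, had 8, 7 and 4 reads against 11, 8 and 13. Its ratio of read rates was 0.587, with an exact 95% counting interval from 0.315 to 1.07, which takes in equal rates. The lower end of this interval was 1.95 for WNT10A and 1.43 for NKD1. Among these 13 genes the interval left out equal rates for WNT10A, NKD1 and SFRP1 only, and it covers counting error alone. The filter on low counts kept these 13 genes out of the test.

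Before the values, the DNA in front of 3 members is shown. Among the 33 members with a RefSeq promoter window here, DKK1, TCF7 and TCF7L2 had a window that held a TCF/LEF word. Searched on both strands were the word CTTTGAA, the word CTTTGAT, the word CTTTGTA and the word CTTTGTT, which TCF/LEF factors are known to prefer, in the 250 bases before each RefSeq start (GRCh38.p14). Of 35116 such windows over all genes, 12.0% held at least 1 word. Of 43 windows that belonged to 33 members, 3 did, or 6.98%, and the difference between these shares was not tested. The other 16 members had no window in the promoter set used here and were not searched. They were WNT7B, WNT10B, WNT11, FZD2, FZD3, FZD6, FZD7, FZD10, LRP6, DKK3, SFRP1, NOTUM, LGR5, ZNRF3, AXIN2 and NKD1. The windows are printed 5′ to 3′ on the gene's strand with the words in capitals. The DKK1 window, chr10:52314031-52314280 on the plus strand, lies in front of the gene and overlaps an exon of the antisense gene PRKG1-AS1 in the GENCODE annotation, and holds 2 words that begin 95 and 76 bases before the start. The TCF7 window, chr5:134123368-134123617 on the plus strand, belongs to a start inside the gene and lies in an intron, and its word, read on the opposite strand, begins 50 bases before that start. The TCF7L2 window, chr10:113126383-113126632 on the plus strand, also lies in an intron before an internal start, and its word begins 133 bases before it. The further windows of TCF7 and TCF7L2, at other starts of these genes, held no word. A word is a match of letters and not a site of binding.
DKK1: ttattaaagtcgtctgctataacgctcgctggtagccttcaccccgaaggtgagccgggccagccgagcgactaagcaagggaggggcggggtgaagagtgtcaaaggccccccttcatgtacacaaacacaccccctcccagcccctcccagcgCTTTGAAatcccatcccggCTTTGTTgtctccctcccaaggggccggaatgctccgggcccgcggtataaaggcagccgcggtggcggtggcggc
TCF7: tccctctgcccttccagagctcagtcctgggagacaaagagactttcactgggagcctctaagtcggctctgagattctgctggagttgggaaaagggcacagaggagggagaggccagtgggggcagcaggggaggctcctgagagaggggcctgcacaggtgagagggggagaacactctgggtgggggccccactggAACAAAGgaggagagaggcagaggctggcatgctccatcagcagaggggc
TCF7L2: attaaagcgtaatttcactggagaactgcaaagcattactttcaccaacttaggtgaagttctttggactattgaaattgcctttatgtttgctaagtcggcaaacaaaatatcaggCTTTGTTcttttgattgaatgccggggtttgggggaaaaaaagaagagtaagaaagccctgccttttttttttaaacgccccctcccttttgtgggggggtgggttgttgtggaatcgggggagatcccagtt

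Among the 13 member ligands, WNT7B was the one that passed the fold limit. WNT7B (ENSG00000188064, chromosome 22 from 45920362 to 45977129, GRCh38), which signals through the canonical branch in many epithelia, had 34.8, 35.2 and 36.0 CPM in shCdGAP replicates 1, 2 and 3, and 12.97, 13.5 and 11.4 CPM in the shCon replicates. All 3 depleted libraries lay far above the control libraries, and each group was tight. The means were 35.4 ± 0.628 and 12.6 ± 1.12 CPM (SD, n = 3 each), which is 2.80-fold (log2 fold change 1.48, SE 0.0676, adjusted p = 3.03e-07). WNT7A, its close paralogue, had 15.4, 19.2 and 14.7 CPM against 11.4, 11.6 and 9.60 CPM. The groups did not overlap, and shCdGAP replicate 2 was the highest library. The change was smaller than for WNT7B (log2 fold change 0.60, SE 0.116, adjusted p = 0.00207) and did not pass 0.01 without shCon replicate 3 (adjusted p = 0.0122).

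The other 5 tested ligands did not pass the test. Of these, 3 had groups that did not overlap, as did 67.1% of all tested genes. WNT5A, the main ligand of the β-catenin-independent branch, had 22.9, 27.5 and 22.4 CPM in shCdGAP and 20.1, 20.7 and 20.7 CPM in shCon libraries (log2 fold change 0.24, SE 0.0804, adjusted p = 0.0274), and without shCdGAP replicate 2 the log2 fold change was 0.13. WNT10B, a canonical ligand, had 21.95, 20.3 and 22.4 CPM against 19.2, 19.3 and 18.3 CPM (log2 fold change 0.18, SE 0.0592, adjusted p = 0.0245). Without shCdGAP replicate 2, its lowest depleted library, WNT10B passed 0.01 (adjusted p = 0.000649). In that fit 10035 of 16727 genes passed, against 7587 of 16439 with all libraries. WNT9A had 0.691, 0.413 and 0.727 CPM against 0.882, 0.924 and 1.15 CPM (log2 fold change -0.69, SE 0.252, adjusted p = 0.0395), or -0.47 without that library. WNT3, a canonical ligand, overlapped between the groups at 12.4 ± 1.48 and 11.9 ± 0.851 CPM (SD, n = 3 each, adjusted p = 0.638), and WNT2B did so at under 1 CPM (log2 fold change 0.51, adjusted p = 0.215, and 0.25 without shCdGAP replicate 2).

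Levels of different genes can be set side by side only per length, here as CPM per kilobase of annotated exon. All annotated exons of a gene count towards its length, whichever transcripts are expressed, so shares and rankings depend on it. On that scale the ligand pool of shCon cells was led by WNT10B with 40.3% of the summed level, followed by WNT3 with 15.4%, WNT5A with 15.3%, WNT7B with 14.0% and WNT7A with 13.3%. In shCdGAP cells WNT10B made up 32.6% and WNT7B 27.9%, WNT7A 14.3%, WNT5A 12.8% and WNT3 11.4%. The sum over all 13 ligands was 24.8, 25.2 and 25.3 CPM per kilobase in the depleted libraries and 18.1, 18.1 and 17.3 CPM per kilobase in control libraries. The depleted libraries thus lay above the control libraries throughout, at 25.1 ± 0.257 and 17.9 ± 0.458 CPM per kilobase (SD, n = 3 each). The ratio of the sums, 1.41, is given as a description without a test.

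Export of every ligand depends on PORCN, which attaches the lipid, and on WLS, which carries the ligand to the cell surface. PORCN had 17.5, 20.4 and 20.5 CPM in shCdGAP and 13.9, 14.4 and 15.5 CPM in shCon libraries, and it rose (log2 fold change 0.41, SE 0.0793, adjusted p = 0.00183), although not without shCon replicate 1 or 2 (highest adjusted p = 0.015). WLS had 50.4, 55.8 and 47.1 CPM against 50.0, 50.5 and 50.2 CPM, so the control libraries lay inside the range of the depleted ones (log2 fold change 0.03, adjusted p = 0.729).

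Frizzled receptors changed in both directions. FZD1, FZD6, FZD7 and FZD8 rose, FZD3, FZD4 and FZD5 fell, and FZD2 did not pass the test, out of 8 tested. Over all tested genes 46.2% changed, 24.1% higher and 22% lower. FZD8 (chromosome 10 from 35638249 to 35642278), the most abundant frizzled per kilobase in both groups, had 168, 163 and 163 CPM in the depleted libraries and 87.7, 95.8 and 93.0 CPM in control libraries. The difference was many times the spread within either group, at 1.79-fold (log2 fold change 0.84, SE 0.0419, adjusted p = 5.13e-07). FZD1 had 65.1, 55.7 and 66.3 CPM against 37.0, 35.1 and 33.8 CPM, again without overlap and 1.77-fold higher (log2 fold change 0.82, SE 0.0711, adjusted p = 1.53e-05). FZD7 (chromosome 2 from 202034587 to 202038445) was the least abundant of the frizzleds that rose and had the largest fold. It had 136, 245 and 113 reads in the depleted libraries and 34, 46 and 34 in control libraries, or 4.09 ± 1.33 and 0.977 ± 0.147 CPM (SD, n = 3 each). Its 4.19-fold difference (log2 fold change 2.07, SE 0.255, adjusted p = 0.000141) lay between 1.76 and 2.20 on the log2 scale with any one library omitted, shCdGAP replicate 2 being the highest. FZD6, a receptor better known from planar polarity, had 87.3, 87.8 and 79.6 CPM against 71.9, 72.7 and 70.6 CPM (log2 fold change 0.24, SE 0.0460, adjusted p = 0.00166). Its call was lost without shCdGAP replicate 1 or any one of the shCon libraries, at adjusted p values up to 0.0147.

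FZD4, which besides WNT ligands also binds the unrelated ligand norrin, was the frizzled that fell most. It had 26.5, 33.02 and 25.4 CPM in shCdGAP libraries and 55.0, 55.0 and 57.0 CPM in shCon libraries. The highest depleted library, replicate 2, was still far below the lowest control library. The log2 fold change was -0.97 (SE 0.0904, adjusted p = 3.17e-05) with all libraries and -1.11 without shCdGAP replicate 2, which puts FZD4 past the fold limit. FZD5, a receptor of canonical ligands, had 15.7, 15.5 and 13.5 CPM against 24.4, 24.4 and 23.3 CPM (log2 fold change -0.69, SE 0.0686, adjusted p = 3.28e-05). FZD3, a receptor of axon guidance and planar polarity, fell from 36.3 ± 1.19 to 29.3 ± 1.58 CPM (SD, n = 3 each, log2 fold change -0.31, SE 0.0541, adjusted p = 0.00109). FZD2 overlapped between the groups, with 23.4, 30.9 and 22.4 CPM against 21.5, 22.1 and 23.7 CPM (log2 fold change 0.19, adjusted p = 0.196), and without shCdGAP replicate 2, the highest library, its log2 fold change was 0.03.

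Summed over the 9 frizzleds, the level per length was 92.5, 95.1 and 88.4 CPM per kilobase in shCdGAP and 68.9, 71.2 and 70.5 CPM per kilobase in shCon libraries, a 1.31-fold difference without overlap and without a test. FZD8 took 44.4% of the sum in shCdGAP cells and 32.6% in shCon cells. The share of FZD6 was 22.7% and 25.1% in the same order, and that of FZD4 was 4.17% and 10.7%.

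**Figure D2:**
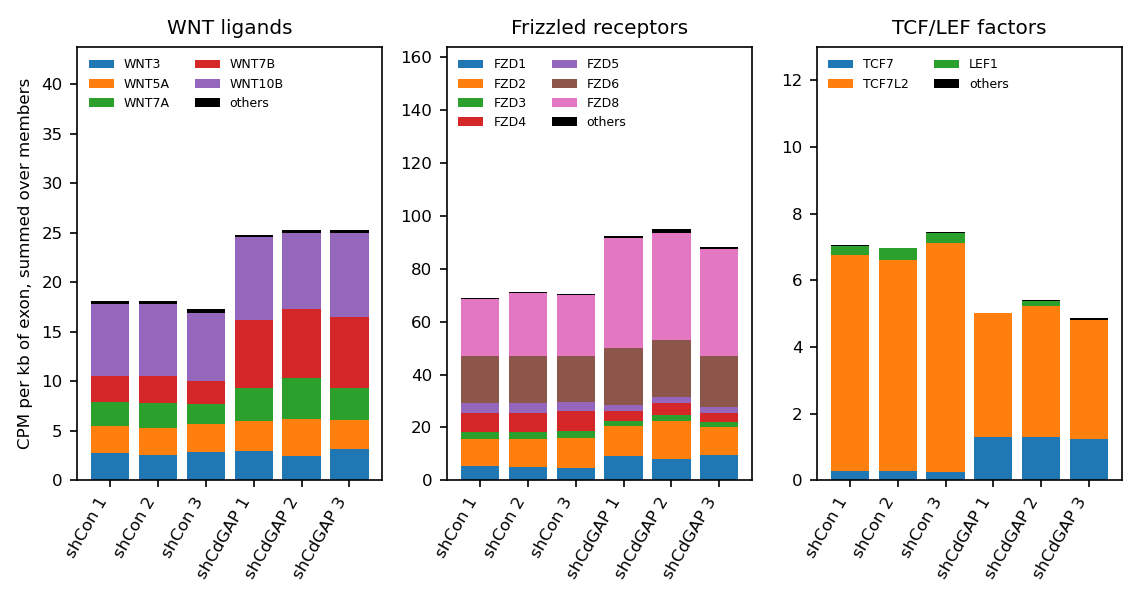
Stacked levels in CPM per kilobase of exon in each of the 6 libraries for the WNT ligands, the frizzled receptors and the TCF/LEF factors, with members under 2% of a family's total drawn together as others. WNT7B and FZD8 take wider bands in the shCdGAP libraries, and the TCF/LEF bars are lower there, at 4.86 to 5.42 against 6.99 to 7.46 CPM per kilobase, with a wider TCF7 band.

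Of the 4 co-receptors tested, 3 were lower and 1 higher, beside 22% and 24.1% of all tested genes. LRP5 and LRP6, the pair that canonical ligands bridge to a frizzled, both fell. LRP5 had 180, 182 and 174 CPM in the shCdGAP and 244, 247 and 240 CPM in control libraries (log2 fold change -0.44, SE 0.0334, adjusted p = 6.07e-06). LRP6 had 40.5, 42.5 and 41.2 CPM against 55.1, 53.0 and 53.3 CPM (log2 fold change -0.38, SE 0.0410, adjusted p = 5.88e-05). Neither gene had overlapping groups, and both sets of replicates were tight. RYK, a receptor-like pseudokinase that binds WNT ligands, had 91.9, 97.2 and 90.2 CPM against 137, 130 and 133 CPM (log2 fold change -0.52, SE 0.0415, adjusted p = 9.05e-06). ROR1, the tyrosine kinase-like receptor of WNT5A, was the one co-receptor that rose, with 54.4, 49.3 and 52.9 CPM against 34.5, 33.7 and 34.2 CPM (log2 fold change 0.61, SE 0.0486, adjusted p = 8.41e-06). Its relative ROR2 had at most 1 read in a library. The summed level of the 5 co-receptors was 52.4 ± 0.908 CPM per kilobase in shCdGAP and 66.4 ± 0.687 CPM per kilobase in shCon cells (SD, n = 3 each), the opposite order to the frizzled sum.

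DKK1 was the one secreted antagonist with enough reads to test. DKK1 (chromosome 10 from 52314296 to 52318042), which binds LRP5 and LRP6 and keeps canonical ligands from using them, had 134, 97.3 and 130 CPM in the depleted libraries and 202, 218 and 209 CPM in control libraries. The depleted libraries were all lower, replicate 2 the lowest. The means were 120 ± 20.1 and 209 ± 8.35 CPM (SD, n = 3 each, log2 fold change -0.80, SE 0.117, adjusted p = 0.000959), and the log2 fold change stayed between -0.90 and -0.68 with any one library omitted. Per length, DKK1 stood at 54.6 and 94.9 CPM per kilobase and made up at least 99.8% of the antagonist sum in either group. DKK1 is the gene whose window above holds 2 TCF/LEF words. SFRP1, a soluble decoy with a frizzled domain, had 10, 17 and 5 reads in shCdGAP and 3, 3 and 2 reads in shCon libraries, and the ratio of read rates was 3.96 with an exact 95% counting interval from 1.79 to 9.94. SFRP1 was left out of the test by the filter on low counts, and without that filter its adjusted p was 0.00331. DKK3 and FRZB had at most 5 reads and NOTUM, a lipase that inactivates WNT ligands, at most 4 reads in any library.

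The R-spondin axis sets how long frizzled receptors stay at the cell surface: RNF43 and ZNRF3 are ubiquitin ligases that remove them, and R-spondins bound to LGR4 or LGR5 take the ligases away. RNF43 (ENSG00000108375, chromosome 17 from 58352500 to 58417595) had the largest rise of any member. It had 25.4, 28.0 and 26.4 CPM in shCdGAP and 5.27, 4.86 and 5.45 CPM in shCon libraries. Every depleted library held more than 4 times the level of every control library. The means were 26.6 ± 1.32 and 5.19 ± 0.303 CPM (SD, n = 3 each). The ratio was 5.12 (log2 fold change 2.36, SE 0.0729, adjusted p = 4.08e-08), and omission of single libraries gave log2 values from 2.30 to 2.38. ZNRF3, the paralogue of RNF43, had 2.02, 1.88 and 1.66 CPM against 1.74, 1.59 and 1.33 CPM, with overlapping groups (log2 fold change 0.25, adjusted p = 0.207).

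The R-spondin receptors went the other way. LGR5 (chromosome 12 from 71439770 to 71586310), a marker of WNT-dependent epithelial stem cells, had 12.6, 8.27 and 12.1 CPM in the depleted libraries and 28.8, 28.7 and 31.1 CPM in control libraries. No depleted library reached the level of a control library, and replicate 2 was the lowest. LGR5 fell to 0.373 of the control level (log2 fold change -1.43, SE 0.143, adjusted p = 7.51e-05), with a range from -1.55 to -1.26 when each library was left out, the value nearest to 0 being that without shCdGAP replicate 2. LGR4 had 99.2, 101 and 100 CPM against 122.6, 120 and 121 CPM (log2 fold change -0.28, SE 0.0327, adjusted p = 9.72e-05). The ligand RSPO3 had at most 1 read in a library, and RSPO2, which is no member, is given with the further pathway genes.

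All 4 genes of the destruction complex and β-catenin changed, 3 higher and 1 lower. Of all tested genes 46.2% changed, 24.1% higher and 22% lower. CTNNB1 (chromosome 3 from 41194837 to 41260096), which encodes β-catenin, stood at 116 CPM per kilobase in shCdGAP and 83.5 CPM per kilobase in shCon cells, the highest level per length of any member in shCdGAP cells and second to DKK1 in shCon cells. It had 772, 799 and 740 CPM against 549, 567 and 541 CPM. The groups were far apart relative to their spread, and the rise was 1.39-fold (log2 fold change 0.48, SE 0.0396, adjusted p = 1.09e-05). RNA level says nothing of the stability of the protein, on which the pathway acts.

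The pair of axins moved in opposite directions. AXIN1, the constitutive scaffold of the complex, had 52.6, 52.4 and 55.6 CPM in shCdGAP and 74.7, 75.4 and 73.5 CPM in shCon libraries (log2 fold change -0.48, SE 0.0399, adjusted p = 1.15e-05). AXIN2 (chromosome 17 from 65528563 to 65561647), the inducible scaffold that is commonly read as a reporter of canonical signalling, had 11.1, 12.0 and 10.3 CPM against 4.93, 5.05 and 5.30 CPM. The lowest depleted library held nearly double the level of the highest control library. The difference was 2.18-fold (log2 fold change 1.13, SE 0.0893, adjusted p = 8.35e-06), while AXIN1 remained the more abundant per length, at 7.15 against 2.13 CPM per kilobase in shCdGAP cells. APC, the tumour suppressor of the complex, had 50.4, 44.9 and 47.8 CPM against 40.5, 39.9 and 37.3 CPM (log2 fold change 0.28, SE 0.0556, adjusted p = 0.00214), a call that was lost without shCdGAP replicate 1 or without shCon replicate 2 or 3 (highest adjusted p = 0.0169).

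The TCF/LEF factors, which carry β-catenin on DNA, showed a change of makeup. TCF7 (ENSG00000081059, chromosome 5 from 134114711 to 134151865), encoding TCF-1, had 13, 13.2 and 12.5 CPM in shCdGAP libraries and 2.88, 2.75 and 2.57 CPM in shCon libraries. All replicates were within 1 CPM of each other inside a group, and the groups differed 4.72-fold (log2 fold change 2.24, SE 0.0859, adjusted p = 1.23e-07). TCF7L2 (chromosome 10 from 112950250 to 113167678), encoding TCF-4, had 18.4, 19.4 and 17.6 CPM against 32.0, 31.3 and 33.9 CPM and fell (log2 fold change -0.81, SE 0.0571, adjusted p = 4.26e-06). Per length, TCF7L2 made up 91.4% of the family in shCon cells and 73.4% in shCdGAP cells, and TCF7 3.79% and 25.2%. TCF7L2 remained the most abundant factor in both groups, per length and by CPM. The annotated exon length was 10063 bases for TCF7 and 4935 bases for TCF7L2, and the shares depend on it. The count tables add up all transcripts of a gene, so the internal starts shown above for TCF7 and TCF7L2 cannot be told apart from the first ones in these levels. TCF7L1 had at most 9 reads in any library.

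LEF1 (chromosome 4 from 108047545 to 108168956) turned on 1 library. It had 0, 30 and 0 reads in shCdGAP replicates 1, 2 and 3, and 59, 81 and 55 reads in control libraries. The groups did not overlap, but replicate 2 stood at 41.4% of the control mean while its fellow libraries had no read. With all libraries the gene did not pass the test (log2 fold change -2.72, SE 0.877, adjusted p = 0.0356). Without shCdGAP replicate 2 it did (adjusted p = 2.53e-14), in a fit where 10035 of 16727 genes changed, against 7587 of 16439 with all libraries. That was the 1 of 13 alternatives in which LEF1 passed, and its highest adjusted p was 0.297. Against a floor of 3 reads per library the other 2 shCdGAP libraries were at least 20.6-fold lower than the control mean.

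**Figure D3:**
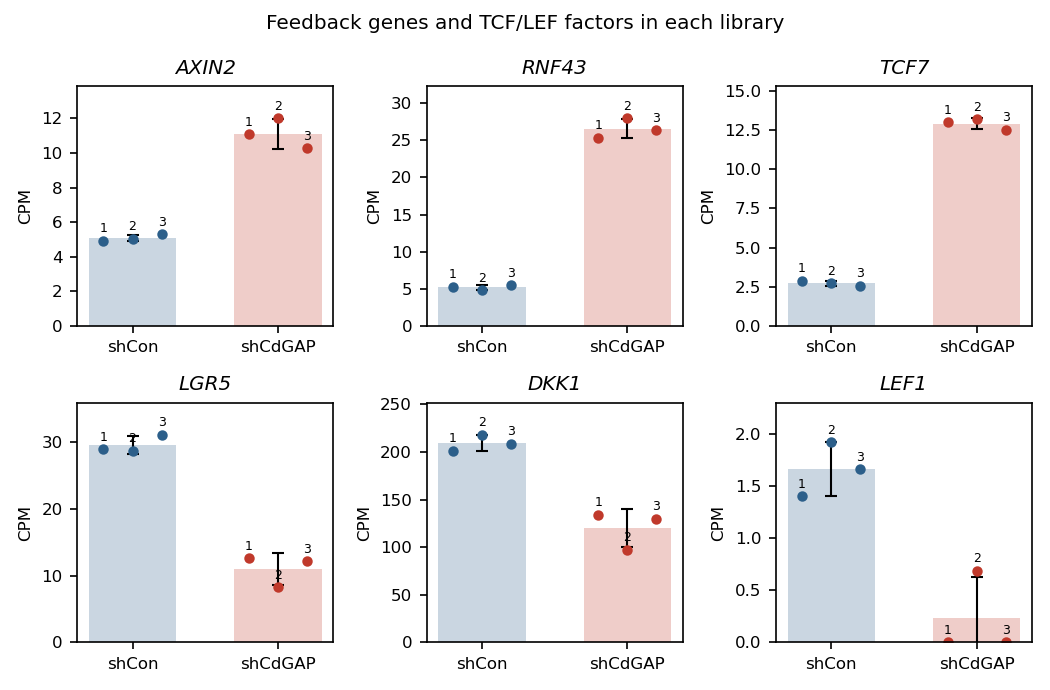
CPM of AXIN2, RNF43, TCF7, LGR5, DKK1 and LEF1 in shCdGAP and shCon cells, with bars for the mean, error bars for the SD (n = 3 each, cut at 0 for LEF1) and points numbered by replicate. The first 3 genes lie higher and LGR5 and DKK1 lower in all shCdGAP libraries, and the only shCdGAP library of LEF1 above 0 is replicate 2.

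Read as one group, the feedback genes of the pathway did not move in one direction. Of the 9 named at the outset, a grouping made after the values were seen, AXIN2, RNF43 and TCF7 rose, LGR5 and DKK1 fell, ZNRF3 and LEF1 did not pass the test, and NKD1 and NOTUM had too few reads. That is 5 changed of 7 tested, where 46.2% of all tested genes changed. Both AXIN2 and RNF43 act as brakes, as does DKK1, so brakes were found among the genes that rose and the genes that fell. LGR5 acts as an amplifier.

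Some members showed the library that stood apart more than others. The log2 deviation of shCdGAP replicate 2 from the mean of replicates 1 and 3 was 0.76 for FZD7, -0.58 for LGR5, -0.44 for DKK1 and 0.43 for FZD2, and at low levels -0.78 for WNT9A and 0.63 for WNT2B. Over the 32 members with at least 10 reads in every library, its median absolute deviation was 0.127, between those of replicate 1 (0.0771) and replicate 3 (0.129). Over the 14742 genes with that many reads, it was the largest of the 6 libraries at 0.138. LEF1, with 0 reads in shCdGAP replicates 1 and 3, is left out of these deviations. RNF43, TCF7, WNT7B, FZD8 and CTNNB1 kept tight replicates.

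To see whether members moved with their surroundings on the chromosome, each tested member was set beside the median log2 fold change of up to 40 nearest tested genes, 20 on either side. The neighbours of the 24 changed members had medians between -0.57 and 0.32, and 13 of the 24 members had the same sign as their neighbours. RNF43, AXIN2, FZD7, WNT7B, FZD8 and LGR5 lay among genes with medians within 0.08 of 0. WNT7A, at 0.60, lay among genes with a median of -0.57, CTNNB1, at 0.48, among genes with a median of -0.25, and TCF7, at 2.24, among genes with a median of 0.32. WNT5A, at 0.24 and not past the test, had neighbours with a median of 0.49.

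**Figure D4:**
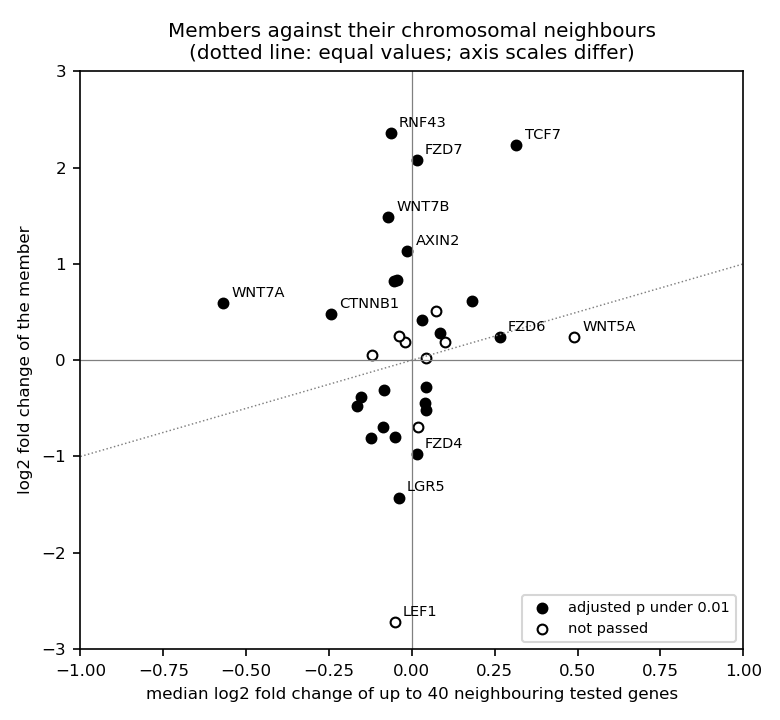
Log2 fold change of each tested member (vertical axis) against the median log2 fold change of its up to 40 neighbouring tested genes (horizontal axis), filled where the member's adjusted p was under 0.01. Most members lie within 0.3 of 0 on the horizontal axis whatever their own change, and WNT5A, WNT7A and TCF7 lie beyond it.

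Around these members, 120 further genes of the pathway were read from lists written from general knowledge. Of these 93 were tested, 30 rose and 25 fell, the median log2 fold change being 0.08. The fold limit was passed by 15, 10 higher and 5 lower. Over all tested genes 24.1% rose, 22% fell and 12.8% passed the fold limit, which is the background for these lists too. Among other secreted and surface genes, 10 of 30 were tested, 3 rose and 2 fell. KREMEN2, the receptor through which DKK1 removes LRP6 from the surface, had 3, 9 and 3 reads in shCdGAP and 37, 34 and 19 reads in shCon libraries (log2 fold change -2.57, SE 0.378, adjusted p = 0.000382), so that the antagonist and this partner were both lower. GPC4, a heparan sulphate proteoglycan of the cell surface, fell from 55.4 ± 0.410 to 12.8 ± 3.06 CPM (log2 fold change -2.10, SE 0.146, adjusted p = 1.63e-05). TRABD2A, a membrane protease that cleaves WNT ligands, rose from 7.59 ± 0.728 to 31.6 ± 3.42 CPM (SD, n = 3 each, log2 fold change 2.05, SE 0.0995, adjusted p = 4.55e-07). The other 2 genes of this list past the fold limit, outside the rule for naming and chosen after their values were seen, were WNT2 and RSPO2. The ligand WNT2 had 63, 43 and 44 reads against 25, 22 and 10 (log2 fold change 1.39, SE 0.278, adjusted p = 0.00228), and its call was lost without shCdGAP replicate 1 (adjusted p = 0.0113) or shCon replicate 2 (adjusted p = 0.0106). The R-spondin RSPO2 had 33, 49 and 23 reads against 11, 12 and 6 (log2 fold change 1.82, adjusted p = 0.000748).

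Of the cytoplasmic and nuclear transducers, 32 of 33 were tested, 8 rose and 12 fell, where 46.2% of all tested genes changed, and only DACT3 and TLE2 passed the fold limit. DACT3, a Dishevelled antagonist, had 37, 44 and 20 reads against 6, 5 and 1 (log2 fold change 3.01, SE 0.413, adjusted p = 0.000244), and the TCF co-repressor TLE2 fell by 1.198 on the log2 scale (SE 0.217, adjusted p = 0.00129). In the planar polarity and calcium branch, 34 of 38 were tested, 10 rose and 8 fell, beside 24.1% and 22% of all tested genes. DAAM2, a formin that links Dishevelled to actin, had 2304, 1960 and 1791 reads in the depleted libraries and 0, 0 and 1 read in control libraries (adjusted p = 1.28e-08). PTK7, a pseudokinase co-receptor of planar polarity, rose from 5.93 ± 0.430 to 15.3 ± 1.09 CPM (SD, n = 3 each, log2 fold change 1.37, SE 0.0881, adjusted p = 2.4e-06). CAMK2B, a calcium-dependent kinase, had 169, 438 and 124 reads against 25, 24 and 33 (log2 fold change 3.08, SE 0.521, adjusted p = 0.00232), again with replicate 2 the highest. Without that library its log2 fold change was 2.46, and its adjusted p was 0.0299 when no filter on low counts was applied.

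Genes outside the pathway that β-catenin is known to activate were a further list, of which 17 of 19 were tested, 9 rose and 3 fell, beside 24.1% and 22% of all tested genes, their median log2 fold change being 0.32. MMP7, a matrix protease, rose from 0.550 ± 0.127 to 3.04 ± 0.0861 CPM (SD, n = 3 each, log2 fold change 2.47, SE 0.183, adjusted p = 5.67e-06). The tight junction gene CLDN1 fell from 70.5 ± 1.80 to 30.1 ± 6.001 CPM (SD, n = 3 each, log2 fold change -1.23, SE 0.134, adjusted p = 0.000189). BMP4, a secreted growth factor, had 10, 13 and 4 reads against 24, 26 and 19 (log2 fold change -1.36, SE 0.312, adjusted p = 0.0048), and did not pass 0.01 under DESeq2 (adjusted p = 0.016). In this list 3 genes were higher and 2 lower past the fold limit. PPARD (log2 fold change 1.18, adjusted p = 1.2e-07) and TBX3 (log2 fold change 1.17, adjusted p = 5.65e-07) were also higher. Both are outside the rule for naming and were chosen after their values were seen.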

How the data were processed

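Raw gene-level counts were deposited by the authors for 6 libraries of PC-3 RNA, 3 per group, described in the methods as independent samples. Reads were aligned to GRCh38 with STAR 2.5.1b. The table headers name featureCounts 1.6.0, Ensembl release 77 and strand-specific counting of read pairs, whereas the labels name featureCounts 1.4.6 and the methods a single-read kit. Under the headers' settings reads with several alignments were not counted. Of 64253 genes 56105 matched a symbol, as did all 49 members and 120 of 121 other pathway genes. Members and lists were chosen with earlier results of these data known, and all members are named. From each other list, up to 3 genes with the largest changes past the fold limit and no overlap of groups are named.

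In edgeR 4.0.16 (R 4.3.3), genes were filtered with filterByExpr, scaled by TMM and fitted with group as the only term, and the robust quasi-likelihood test was adjusted by Benjamini-Hochberg over 16439 genes. An SE is the size of the log2 fold change over the root of F. Changed means an adjusted p under 0.01, and the fold limit is an absolute log2 fold change above 1. Scripts were tested on simulated data. Alternatives were DESeq2 1.42.0, other scalings, filters and thresholds, glmTreat, a replicate block and each library left out. Promoter windows are from RefSeq (GRCh38.p14) and exons from GENCODE 44. Intervals and floors cover counting error only, and tables were prepared with Python 3.11.15. A few marker genes that were read are not reported here.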

Additional observations from a re-analysis of the deposited data

How the results depend on the processing

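No member and no other pathway gene that was tested reversed its direction in a call under any alternative. The count of 24 changed members was also 24 under DESeq2, RLE, upper-quartile and library-size scaling, TMM without chromosomes 9 and 13, and a filter of at least 10 reads in every library (which leaves LEF1 out), with no member's call altered under these settings. It was 26 without a filter, where WNT5A and SFRP1 joined, 28 at an adjusted p under 0.05, and 21 to 26 with any one library omitted. Over all genes the background moved too, with 8911 of 31298 changed without a filter and 5787 to 10035 with a library omitted. The scalings moved the median log2 fold change of all genes by less than 0.1. Of the 6 members past the fold limit, glmTreat, which tests against that limit, called 4 (WNT7B, FZD7, RNF43 and TCF7), all higher and 0 lower, so LGR5 and AXIN2 were not called by it. Over all 16439 tested genes glmTreat called 998, where 2096 were past the fold limit in the main fit. Members lower past the fold limit numbered 1 in the report, 2 at an adjusted p under 0.05 and 1 to 3 with each library left out, the 3 being LGR5, FZD4 and LEF1 without shCdGAP replicate 2. For other pathway genes past the fold limit, glmTreat gave 8 instead of 15, 6 instead of 10 higher and 2 instead of 5 lower, and 3 were lower with at least 10 reads in every library.

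The replicate numbers were not treated as pairs, since same-numbered libraries of the 2 groups had correlations of 0.0287, 0.0482 and 0.0451 between their deviations from the group means over all tested genes. Each library correlated best with its own number, which is a hint from the data and not from the design. With the replicate number as a block, 24 members changed and 7229 genes in all, instead of 7587. Low counts limit the 16 members that were not tested, and whether samples of a group came from separate cultures is not given beyond the word independent, so the spread may be partly technical.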
